A study of Mus musculus with 15 samples.

Results

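The genes of transcellular calcium uptake in the intestine were followed in the colon of mice that lack interleukin-10 and of C57 mice. The set holds 6 genes, chosen by their annotated symbol: *S100g*, *Trpv5*, *Trpv6*, *Atp2b1*, *Slc8a1* and *Casr*. They are 6 of the 19076 genes measured, read by 16 of 32016 gene features (array spots annotated to 1 gene). All 6 had values that could be tested. The set was put together with the low *S100g* level of the Il10-/- mice already known from these same arrays, so the *S100g* values are given as a description with their errors and no test.

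Colon RNA of 15 male mice was hybridised, 1 mouse per array. The C57 (C57BL/6J) mice, which carry an intact *Il10* gene, numbered 4 at 7 weeks of age (mice 43, 44, 45 and 46) and 4 at 12 weeks (mice 63, 64, 65 and 66). The Il10-/- mice (B6.129P2-Il10<tm1Cgn>/J, a targeted null allele carried in all cells) numbered 3 at 7 weeks (mice 75, 77 and 78) and 4 at 12 weeks (mice 92, 94, 95 and 96). All mice, controls included, were inoculated by mouth with *Enterococcus* strains and intestinal flora, ate the purified AIN-76A diet, and C57 intake was matched to that of the Il10-/- mice. The 7-week Il10-/- group holds only mice without histological inflammation, since inflamed mice of that age were left out by the study, whereas the 12-week Il10-/- mice had moderate colitis. Full-thickness colon was used, so each value is a mixture of epithelium, muscle, nerve and immune cells, and fewer cells of a type cannot be told apart from less RNA per cell.

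Each value is the log2 ratio of colon RNA over a pooled RNA of small intestine, colon, kidney, liver and fetus of healthy mice. A log2 ratio of 0 stands for the same level as the pool, apart from any bias of a feature between the dyes. Colon carried the same dye on every array, so such a bias would stay in the level against the pool. It would cancel in differences between groups, where a difference of 1 is a doubling. The files carry no spot intensities, so it is unknown whether a feature near 0 in every mouse was above background. Values were present for 41687 to 42147 of the 44290 features on each array. Genes typical of the liver averaged −3.28 to −2.62 over the 15 arrays and those of the kidney −2.54 to −1.92, against 0.64 to 0.99 for gut epithelial genes, which places the colon in the numerator. The single *Il10* feature, which need not lie in the altered stretch, ranged from −0.17 to 0.25 over the 15 mice and differed by 0.14 ± 0.09 (SE) between genotypes at 7 weeks and 0.13 ± 0.08 at 12 weeks, so it does not check the labels. Genotype and age follow the sample titles, whereas the characteristics list Il10-/- as the strain of all 15 arrays, the C57 mice included, and a single age that is neither 7 nor 12 weeks.

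Calcium crosses the gut wall either between the cells, through claudin pores, or through them. In the route through the cell, the apical channels TRPV6 and TRPV5 let calcium in, calbindin-D9k (the product of *S100g*) binds it and carries it across the cytosol, and the plasma membrane pump PMCA1 (the product of *Atp2b1*) drives it out at the basolateral side. The sodium-calcium exchanger NCX1 (*Slc8a1*) is a further exit, better known from heart, nerve and smooth muscle, and the calcium-sensing receptor (*Casr*) reports extracellular calcium. In the gut *S100g* and *Trpv6* are known as targets of the vitamin D receptor, which binds DNA as a partner of a retinoid X receptor. This route is best known from the duodenum, but cecum and colon use it as well.

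Promoters are printed for the genes the results turn on: *S100g* and *Atp2b1*, both lower in Il10-/- mice at both ages, and *Trpv6*, the main entry channel of the gut. No difference was called for *Trpv6* or *Trpv5*. Each window runs from 250 bases before to 50 bases after the annotated start, 5′ to 3′ on the gene's strand, from RefSeq on GRCm38.p6. Capitals mark the nuclear receptor half-site AGGTCA (on either strand, so also TGACCT) and the TATA box letters TATAAA (either strand). The *S100g* window lies at chrX:162964550-162964849 (minus strand), the *Trpv6* window at chr6:41636356-41636655 (minus strand) and the first *Atp2b1* window at chr10:98914392-98914691 (plus strand).
S100g: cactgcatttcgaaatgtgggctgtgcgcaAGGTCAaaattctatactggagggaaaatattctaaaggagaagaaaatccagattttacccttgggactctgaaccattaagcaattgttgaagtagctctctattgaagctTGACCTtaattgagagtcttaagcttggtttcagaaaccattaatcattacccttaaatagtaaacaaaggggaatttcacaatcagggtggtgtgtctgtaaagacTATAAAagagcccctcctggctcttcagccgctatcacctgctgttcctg
Trpv6: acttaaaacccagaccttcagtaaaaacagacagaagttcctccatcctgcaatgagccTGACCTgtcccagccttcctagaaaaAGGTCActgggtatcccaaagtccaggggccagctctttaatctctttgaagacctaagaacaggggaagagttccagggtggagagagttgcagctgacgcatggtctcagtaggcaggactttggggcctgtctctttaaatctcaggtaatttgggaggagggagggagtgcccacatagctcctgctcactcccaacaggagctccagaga
Atp2b1: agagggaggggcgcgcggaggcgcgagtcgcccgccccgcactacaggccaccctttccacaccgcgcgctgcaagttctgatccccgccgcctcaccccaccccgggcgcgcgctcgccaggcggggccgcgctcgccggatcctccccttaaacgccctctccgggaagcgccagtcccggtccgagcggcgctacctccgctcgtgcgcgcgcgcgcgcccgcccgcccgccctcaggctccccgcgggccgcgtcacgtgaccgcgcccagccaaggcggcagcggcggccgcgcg
The *S100g* window held 2 half-sites, starting 220 and 107 bases before the annotated start, and a TATAAA that begins at that start. The *Trpv6* window also held 2 half-sites, at 191 and 165 bases before the start. At least 1 half-site was present in 16.3% of the 32851 mouse promoters of this length, and at least 2 were present in 1.81%. TATAAA was present in 13.6% of them. The *Atp2b1* window, of 79.3% G and C against 41.0% for *S100g*, held none of these letters, nor did a second annotated *Atp2b1* window at chr10:98914902-98915201. The direct repeat of the half-site (AGGTCA, 3 bases of any kind and AGGTCA again, on either strand, each match also counting as 2 half-sites) was found in 2 of all the promoters and in none of the 6 genes. These matches describe letters in a window, and binding was not measured.

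*S100g* was the most variable of the 6 genes and was far lower in the colon of Il10-/- mice at 7 weeks, before any histological colitis, than in C57 mice of the same age. At 7 weeks its log2 ratio was 1.92, 1.37, 1.24 and 1.44 in C57 mice 43, 44, 45 and 46, and −3.33, −2.78 and −3.41 in Il10-/- mice 75, 77 and 78. C57 mice were therefore above the pool and Il10-/- mice well below it, with a gap of 4.02 between the lowest C57 and the highest Il10-/- mouse. At 12 weeks it was −1.63, −1.23, −0.74 and −1.68 in C57 mice 63, 64, 65 and 66, and −2.63, −3.39, −3.17 and −3.35 in Il10-/- mice 92, 94, 95 and 96. The groups again did not overlap, but the gap had narrowed to 0.95.

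The difference between genotypes in *S100g* was −4.67 ± 0.24 (log2, SE) at 7 weeks, 25.4-fold lower in Il10-/- mice, and no other of the 19076 genes had a larger fall in that comparison. At 12 weeks it was −1.82 ± 0.22, or 3.52-fold lower, and 18 genes fell by more. The genotype difference was thus smaller at 12 weeks by 2.85 ± 0.32. This came with a lower level in the older C57 mice: from 7 to 12 weeks *S100g* dropped by 2.81 ± 0.22 in C57 mice, with no overlap and no gene falling further, whereas in Il10-/- mice it differed by 0.04 ± 0.24 (95% interval −0.46 to 0.55). In order of level, C57 mice at 7 weeks (1.49 ± 0.30, SD, n = 4) stood above C57 mice at 12 weeks (−1.32 ± 0.44, n = 4). Il10-/- mice at 12 weeks (−3.13 ± 0.35, n = 4) and at 7 weeks (−3.18 ± 0.34, n = 3) came last and did not differ beyond their spread. Without spot intensities it is unknown whether these low Il10-/- values were above background. If they were not, a change with age in Il10-/- mice could not be seen. The genotype differences could then also be larger than the values given here. Over the 15 arrays the SD of *S100g* was 2.01, exceeded by 1 of the 18716 genes with a value on every array. The C57 mice enter both the genotype and the age comparisons, so these differences are not independent of each other. Leaving out any 1 mouse kept the 7-week difference between −4.86 and −4.53 and the 12-week difference between −1.99 and −1.62.

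**Figure D1:**
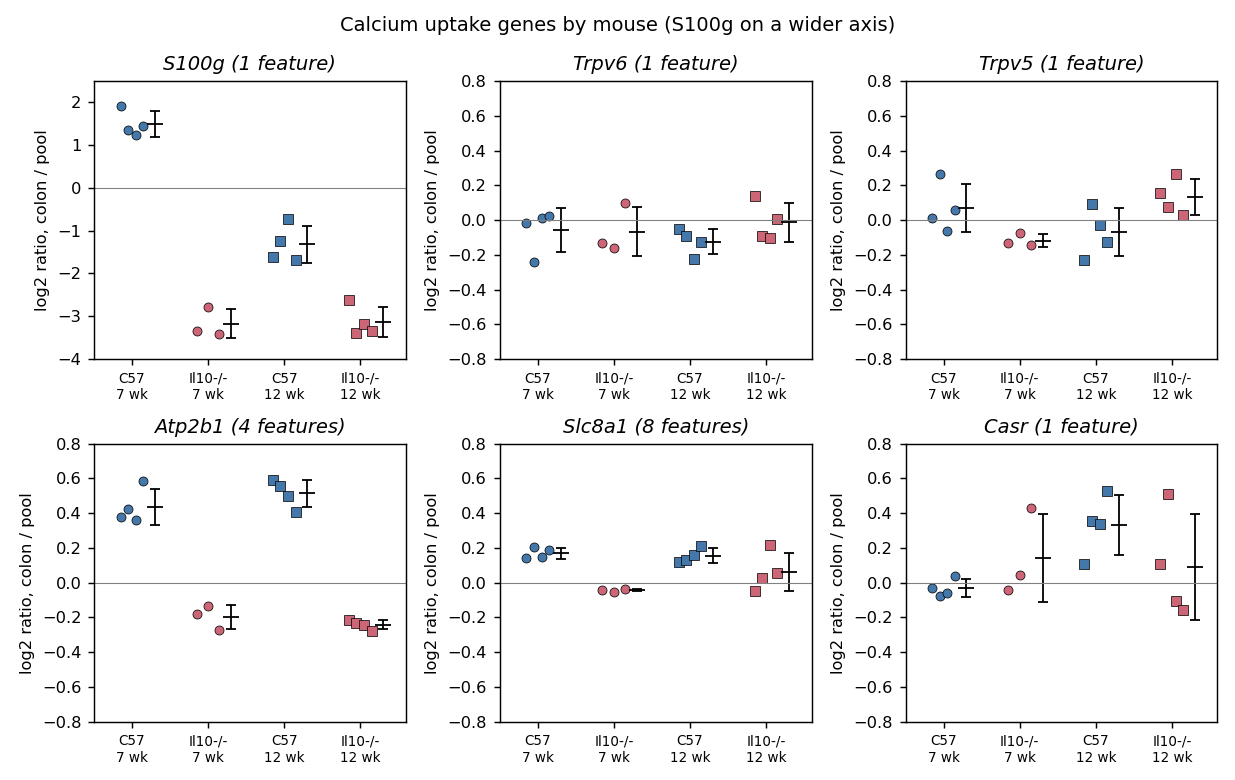
Log2 ratio of colon over pool (vertical axis) for the 6 genes, 1 point per mouse, in the 4 groups (C57 blue, Il10-/- red; circles 7 weeks, squares 12 weeks), with the group mean and SD as a black bar; genes with several features are shown as their mean, and *S100g* has a wider axis. *S100g* runs from −3.41 to 1.92 and *Atp2b1* is above 0 in every C57 mouse and below 0 in every Il10-/- mouse, while *Trpv6* stays between −0.24 and 0.14.

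Marker genes of cell types and gut regions give the makeup of the same samples. The mean of 9 gut epithelial genes lay between 0.64 and 0.99 in all 15 mice, and none of the 9 was called in either genotype comparison (limma; 1 and 4 had an unadjusted p under 0.05 at 7 and 12 weeks). The mean of 8 surface colonocyte genes was −0.17 to 0.06 in C57 and 0.12 to 0.57 in Il10-/- mice at 7 weeks, and 0.19 to 0.67 and −0.34 to 0.26 at 12 weeks. At 7 weeks 5 of the 8 had a positive difference, Il10-/- less C57 (median 0.19), and 2 were called, *Aqp8* and *Car4*, beside 2.42% of all genes called in either direction. At 12 weeks 2 of the 8 had a positive difference (median −0.28) and 2 were called, *Aqp8* and *Slc26a3*, beside 2.52%. The largest of these differences was that of the water channel gene *Aqp8*, which was higher by 2.81 ± 0.46 in Il10-/- mice at 7 weeks (adjusted p = 0.0012, limma) and lower by 2.21 at 12 weeks (−2.21 ± 0.42, adjusted p = 0.00276, limma).

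Other lists bear on the position of the sample along the gut. The mean of 9 small intestinal genes was −1.46 to −1.28 in C57 and −1.79 to −1.39 in Il10-/- mice at 7 weeks, and −1.63 to −0.91 and −1.58 to −1.22 at 12 weeks, so that the genotypes overlapped at both ages. Of these 9, *Slc10a2*, the ileal bile acid transporter, was reduced in Il10-/- mice of both ages (−1.49 ± 0.26 and −1.16 ± 0.24, adjusted p = 0.00186 and 0.00461, limma), and *Lyz1*, a lysozyme of Paneth cells, was higher at both. At each age 1 of the 9 was called lower and 1 higher, beside 2.42% and 2.52% of all genes called in either direction. At 7 weeks 2 of the 9 had a positive difference (median −0.14) and 3 an unadjusted p under 0.05 (limma). At 12 weeks these numbers were 3 (median −0.09) and 2 (limma). Of 13 posterior *Hox* genes, which mark position along the trunk, 3 were called higher at 7 weeks (*Hoxa9*, *Hoxa10* and *Hoxa11*, by 0.79 to 1.08), beside 2.42% of all genes called in either direction. Of the 13, 5 had a positive difference at 7 weeks, the median was −0.05 and 6 had an unadjusted p under 0.05. At 12 weeks 3 had a positive difference, the median was −0.09 and 0 were called (limma; 1 had an unadjusted p under 0.05). These markers were named after their values were seen, and their part in the *S100g* difference was not tested.

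The level of *Atp2b1*, the calcium pump of the basolateral membrane, was reduced in Il10-/- mice of both ages, and it was the only one of the 5 other genes to be called. To be called, a gene had to differ by a fold of at least 1.5 with an adjusted p under 0.05. That is 1 of 5 genes at each age, where 1.01% of all genes were called lower at 7 weeks (2.42% in either direction) and 1.02% at 12 weeks (2.52% in either direction). The mean of its 4 features was 0.38, 0.42, 0.36 and 0.59 in C57 mice 43, 44, 45 and 46, and −0.18, −0.14 and −0.27 in Il10-/- mice 75, 77 and 78. In the 12-week mice it was 0.59, 0.56, 0.50 and 0.41 in C57 mice 63, 64, 65 and 66, and −0.21, −0.23, −0.24 and −0.28 in Il10-/- mice 92, 94, 95 and 96. By this mean every C57 mouse was above the pool and every Il10-/- mouse below it, with no overlap at either age. Single features did not all show this position against the pool. Feature 35316 was above 0 in every Il10-/- mouse at 7 weeks (0.04 to 0.26). Feature 6704 was below 0 in C57 mice 43, 45 and 66 (−0.09, −0.23 and −0.17).

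The *Atp2b1* difference was −0.63 ± 0.07 at 7 weeks (1.55-fold lower, adjusted p = 2.57e-05, limma) and −0.76 ± 0.06 at 12 weeks (1.69-fold lower, adjusted p = 9.05e-07, limma). Without C57 mouse 46 the 7-week value was −0.58, just under the 1.5-fold limit, with an adjusted p of 7.5e-05 (limma). The genotype difference did not pass the test between ages (−0.12 ± 0.09, adjusted p = 0.523, limma). Neither did the change from 7 to 12 weeks in C57 mice (0.08 ± 0.06) or in Il10-/- mice (−0.05 ± 0.07), with adjusted p of 0.624 and 0.815 (limma). The 95% interval of the C57 change, −0.05 to 0.21, leaves out a fall of the kind seen in *S100g*.

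The 4 *Atp2b1* features differed widely in the size of this fall, and each was fitted on its own among the 42128 features tested, a choice made after the values were seen. Feature 32879 showed the largest difference: 0.84, 0.79, 0.83 and 1.04 in C57 against −0.27, −0.07 and −0.46 in Il10-/- mice at 7 weeks. The same feature read at 12 weeks 0.99, 1.15, 0.95 and 1.03 in C57 and −0.34, −0.56, −0.37 and −0.51 in Il10-/- mice. Its difference was −1.14 ± 0.09 (adjusted p = 2.57e-06, limma) at 7 weeks and −1.48 ± 0.09 (adjusted p = 2.02e-08, limma) at 12 weeks.

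Feature 3886 was also called lower at both ages, so that 2 of the 4 features were called where 0.845% of all features were called lower at 7 weeks and 0.871% at 12 weeks. It differed by −0.81 ± 0.09 at 7 weeks and −0.81 ± 0.08 at 12 weeks (adjusted p = 3.29e-05 and 5.24e-06, limma). Feature 35316 passed the test but not the fold (−0.35 ± 0.09 and −0.46 ± 0.08, adjusted p = 0.0239 and 0.00121, limma). Feature 6704 did not pass the test at either age (−0.23 ± 0.10 and −0.27 ± 0.09, adjusted p = 0.214 and 0.083, limma), although it is annotated with the same RefSeq transcript as feature 32879. Genotypes did not overlap for 3 of the 4 features at each age, where 10.4% of all features had every Il10-/- mouse below every C57 mouse at 7 weeks and 6.48% at 12 weeks. The 4 features correlated with one another over the 15 arrays (r from 0.71 to 0.98, a description of features that share arrays and groups). The direction was therefore shared by the features, and the mean of the 4 understates the difference of feature 32879 and overstates that of feature 6704.

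**Figure D2:**
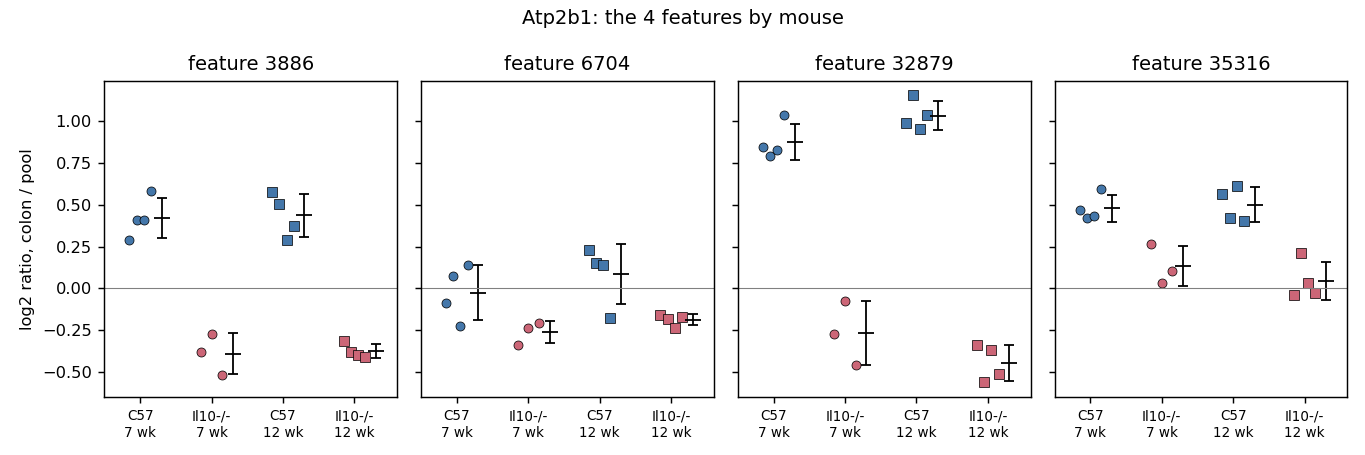
Log2 ratio of colon over pool (vertical axis) for each of the 4 *Atp2b1* features, 1 point per mouse in the 4 groups, with the group mean and SD as a black bar. Feature 32879 separates the genotypes by −1.14 and −1.48, and feature 6704 by −0.23 and −0.27, with overlapping mice.

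Marker lists beside *Atp2b1* include smooth muscle, in which PMCA1 is also present. The mean of 9 smooth muscle genes was 0.31 to 0.51 in C57 and 0.20 to 0.43 in Il10-/- mice at 7 weeks, and −0.03 to 0.64 and −0.26 to 0.31 at 12 weeks. Of the 9, 0 were called at 7 weeks and 0 had an unadjusted p under 0.05 (limma). At 12 weeks 3 (*Myh11*, *Cnn1* and *Lmod1*, −0.87 to −0.66) were called lower in Il10-/- mice, beside 1.02% of all genes (limma). At that age 6 of the 9 had an unadjusted p under 0.05 (limma), beside 22.9% of all genes, and 1 had a positive difference. The leukocyte list (8 genes measured) stayed between −0.11 and 0.05 except in Il10-/- mice at 12 weeks, where it reached 0.07 to 0.19. At 7 weeks 2 of the 9 muscle genes had a positive difference (median −0.14, against −0.53 at 12 weeks). Of the 8 leukocyte genes 0 were called at either age (limma; 1 and 4 had an unadjusted p under 0.05 at 7 and 12 weeks). The mean of 7 enteric neuron genes was 0.16 to 0.30 in C57 and 0.10 to 0.17 in Il10-/- mice at 7 weeks. At 12 weeks it was 0.12 to 0.29 and 0.06 to 0.11, which narrowly did not overlap. Of the 7, 0 were called at either age (limma; 3 and 4 had an unadjusted p under 0.05), with median differences of −0.15 and −0.11. The part of these cell types in the *Atp2b1* difference was not tested.

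*Slc8a1*, the sodium-calcium exchanger, was slightly lower in Il10-/- mice at 7 weeks, by −0.21 ± 0.06 (1.16-fold), which passed the test (adjusted p = 0.0398, limma) but not the fold. The mean of its 8 features was 0.14 to 0.20 in C57 and −0.05 to −0.03 in Il10-/- mice, with no overlap. At 12 weeks the difference was −0.09 ± 0.06 (adjusted p = 0.342, limma), and C57 (0.12 to 0.21) and Il10-/- mice (−0.05 to 0.21) overlapped. The difference between ages was 0.12 ± 0.08 (adjusted p = 0.497, limma), so the 7-week fall is not shown to differ from the 12-week value.

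Its features did not move together. At 7 weeks 3 of the 8 passed the test on their own below the fold: feature 26386 (−0.51 ± 0.13, adjusted p = 0.0321, limma), feature 22701 (−0.47 ± 0.10, adjusted p = 0.0113, limma) and feature 16928 (−0.34 ± 0.08, adjusted p = 0.025, limma). The other 5 lay between −0.19 and 0.04. Feature 35919, annotated with the same transcript as feature 26386, differed by 0.01 at 7 weeks and −0.04 at 12 weeks. Correlations between pairs of the 8 features ran from −0.28 to 0.84 with a median of 0.11, and at 12 weeks 0 of the 8 passed the test (limma; 3 had an unadjusted p under 0.05). Without Il10-/- mouse 77 feature 26386 was called at 7 weeks (−0.64).

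**Figure D3:**
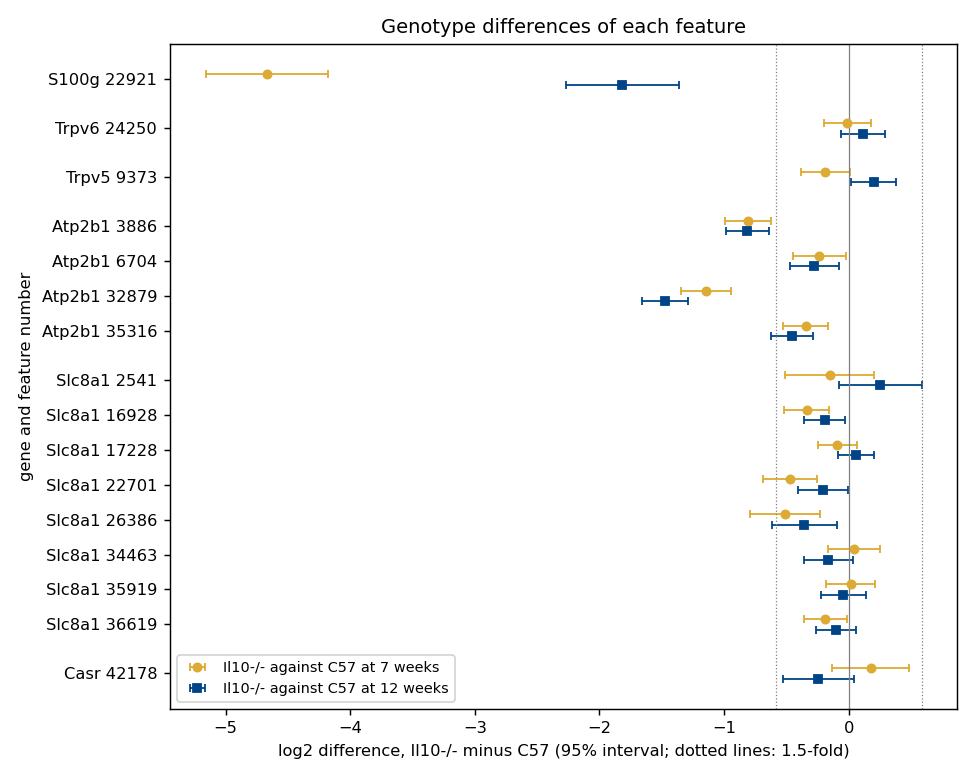
Log2 difference between Il10-/- and C57 mice (horizontal axis) for each of the 16 features (vertical axis) at 7 weeks (yellow circles) and 12 weeks (blue squares), with 95% intervals; dotted lines mark 1.5-fold. Apart from *S100g* (−4.67 and −1.82), only *Atp2b1* features 32879 and 3886 lie wholly beyond the dotted line at both ages.

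The apical entry channels stayed near the level of the pool in all 4 groups. *Trpv6*, the main channel of intestinal calcium uptake, was −0.02, −0.24, 0.01 and 0.02 in C57 mice and −0.13, −0.16 and 0.10 in Il10-/- mice at 7 weeks. The 12-week values were −0.05, −0.09, −0.22 and −0.13 in C57 mice and 0.14, −0.09, −0.11 and 0.00 in Il10-/- mice. The groups overlapped at both ages. Its difference was −0.01 ± 0.09 at 7 weeks (95% interval −0.19 to 0.17, adjusted p = 0.968, limma) and 0.11 ± 0.08 at 12 weeks (−0.06 to 0.28, adjusted p = 0.443, limma). These intervals leave out a 1.5-fold change of the ratio in either direction, although a feature close to background would show ratios near 0 whatever the level.

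*Trpv5*, best known as the calcium channel of the kidney, ranged from −0.23 to 0.27. At 7 weeks every Il10-/- mouse (−0.15 to −0.08) lay below every C57 mouse (−0.06 to 0.27), by a gap of 0.02, and the difference of −0.19 ± 0.09 did not pass the test (adjusted p = 0.232, limma). At 12 weeks the sign was the opposite, 0.20 ± 0.08 (adjusted p = 0.146, limma), with overlapping mice. The difference between ages was 0.39 ± 0.12 (adjusted p = 0.105, limma) and was not called. In Il10-/- mice every 12-week value was above every 7-week value (0.25 ± 0.09, adjusted p = 0.2, limma), which held in one direction or the other for 13.5% of all genes.

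*Casr*, the calcium-sensing receptor, was −0.03, −0.08, −0.06 and 0.04 in C57 mice and −0.04, 0.04 and 0.43 in Il10-/- mice at 7 weeks. Its 12-week values were 0.11, 0.36, 0.34 and 0.53 in C57 mice and 0.11, 0.51, −0.11 and −0.16 in Il10-/- mice. The values of single mice were scattered within 3 of the 4 groups, and genotypes overlapped at both ages. Genotype differences were 0.18 ± 0.15 at 7 weeks and −0.24 ± 0.13 at 12 weeks (adjusted p = 0.546 and 0.307, limma). In C57 mice every 12-week value was above every 7-week value (0.36 ± 0.13, adjusted p = 0.247, limma), where 8.62% of all genes separate the 2 ages without overlap in either direction.

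Among the 5 genes other than *S100g*, every Il10-/- mouse lay below every C57 mouse at 7 weeks for *Atp2b1*, *Slc8a1* and *Trpv5*, where this held for 12.4% of all genes. At 12 weeks it held for *Atp2b1*, where it held for 7.05% of all genes. At an unadjusted p under 0.05, 3 of the 5 genes other than *S100g* passed at 7 weeks (21.2% of all genes) and 2 of 5 at 12 weeks (22.9%). For the difference between ages and for age within either genotype, 0 of the 5 were called, where 1.15%, 0.404% and 0.419% of all genes were called, and 1 of the 5 had an unadjusted p under 0.05 in each (16.9%, 13.2% and 13.7% of all genes). The median difference of the 5 was −0.19 at 7 weeks and −0.09 at 12 weeks, beside −0.0109 and −5e-04 over all genes.

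The genes whose pattern was most like that of *S100g* over the 15 arrays were searched among 1130 genes with an SD of at least 0.3. The 8 with the highest Pearson correlation were *Slc30a10*, *Tmem35a*, *Mptx1*, *Prkg2*, *Oat*, *Odf3b*, *Clps* and *Nsg2* (r from 0.96 down to 0.89). *Slc30a10*, a manganese exporter, was 0.63 ± 0.15 (SD) in C57 and −0.19 ± 0.10 in Il10-/- mice at 7 weeks, and 0.08 ± 0.05 and −0.28 ± 0.06 at 12 weeks. *Mptx1*, a mucosal pentraxin of the gut, was −3.11 ± 0.34 and −4.85 ± 0.05 at 7 weeks, and −4.05 ± 0.31 and −4.47 ± 0.18 at 12 weeks. By group mean both were, like *S100g*, highest in C57 mice at 7 weeks and intermediate in C57 mice at 12 weeks, an order that the search selects for. For *Mptx1* the genotypes overlapped at 12 weeks.

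*Prkg2*, the cGMP-dependent protein kinase II of the gut epithelium, and *Oat*, ornithine aminotransferase, differed by −0.98 and −0.91 at 7 weeks and by −0.33 and −0.57 at 12 weeks. The 4 lowest correlations belonged to *Retnlb*, *Plekhm1*, *Clca4a* and *Duoxa2* (r = −0.96, −0.90, −0.90 and −0.89). *Retnlb*, a goblet cell protein induced by bacteria, had the lowest, but in all 7 Il10-/- mice its feature held the value shared by 73 to 149 features of an array. Its level there may not be resolved, so the size of its difference, its correlation and its place in this order are not settled. *Duoxa2*, the maturation factor of the oxidase DUOX2, was higher by 1.90 and 1.47.

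These likenesses came from the group means. After each group's mean was removed, the correlation with *S100g* was between −0.52 and 0.34 for the 8 most similar genes. The same was so within the set: *Atp2b1* and *S100g* had r = 0.78 over 15 arrays but 0.18 for deviations from the group means, and *Slc8a1* and *S100g* 0.62 and −0.29. *Trpv6* and *S100g* had r = −0.10. The genes nearest to *Trpv6* reached only r = 0.63 (*Sprr2h*), 0.62 (*Cxcl1*), 0.60 (*Clec4d*) and 0.60 (*Dapk2*), and the most opposite −0.69 (*Cyp3a13*), −0.68 (*Csrp1*), −0.68 (*Slco2b1*) and −0.68 (*Lum*).

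**Figure D4:**
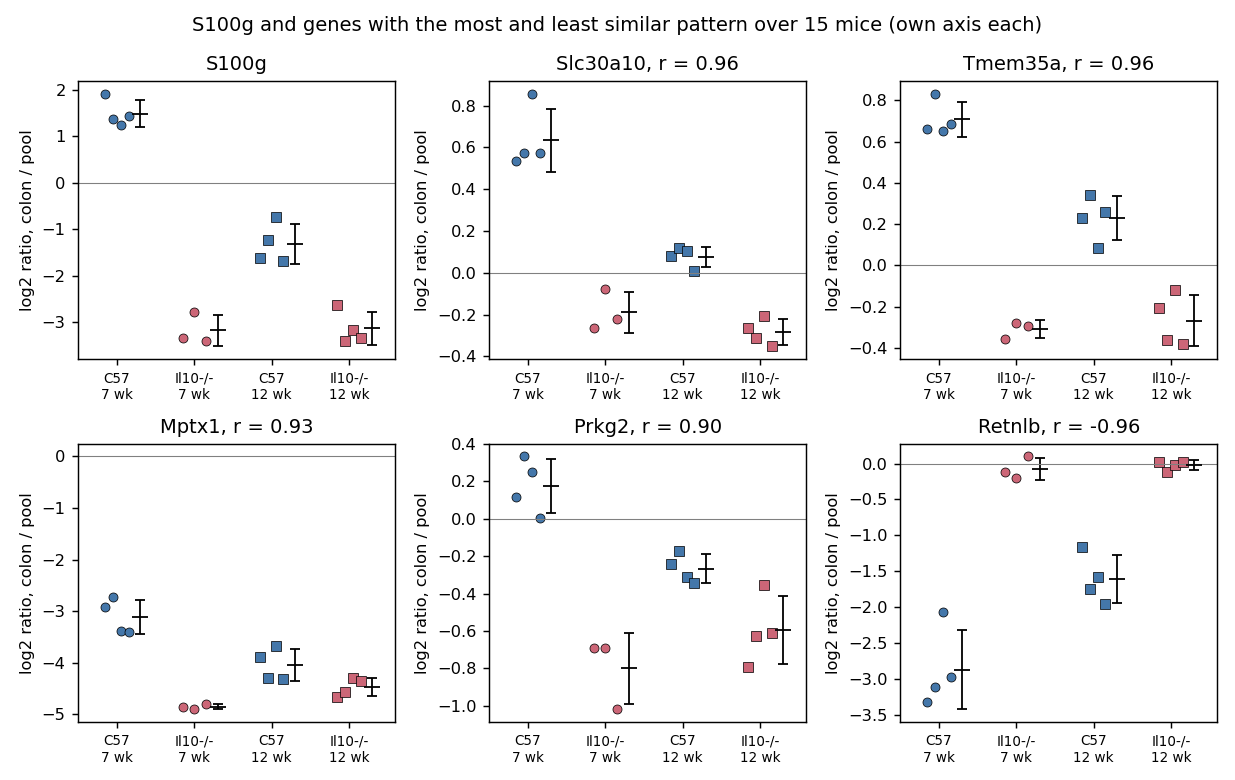
Log2 ratio of colon over pool (vertical axis, a separate scale for each gene) for *S100g*, the 4 genes with the highest and the 1 with the lowest correlation with it over 15 mice, 1 point per mouse, with the group mean and SD as a black bar. By group mean all 4 similar genes were highest in C57 mice at 7 weeks, with C57 mice at 12 weeks between them and the Il10-/- mice, an order that the search selects for. Single mice of *Mptx1* overlapped between genotypes at 12 weeks. *Retnlb* (r = −0.96) was lowest in C57 mice at 7 weeks, with its Il10-/- values all at the value shared by many features and possibly not resolved.

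Beyond the 6 genes, 69 other genes of calcium handling were measured in 8 lists. At 7 weeks 0 were higher and 2 lower in Il10-/- mice (2.90% called, beside 2.42% of all genes), at 12 weeks 0 higher and 1 lower (1.45%, beside 2.52%), and 18 of 69 had an unadjusted p under 0.05 at each age (21.2% and 22.9% of all genes). The median difference of the 69 was −0.03 at 7 weeks and −0.02 at 12 weeks. The genes called were *Cubn*, *Klk1* and, for the difference between ages, *Slc9a3r1*. For age within either genotype 0 of the 69 were called, with 13 at an unadjusted p under 0.05 in C57 and 6 in Il10-/- mice.

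In the vitamin D axis (10 genes), 1 gene was called at each age (limma), beside 2.42% of all genes at 7 weeks and 2.52% at 12 weeks. *Cubn* encodes cubilin, an uptake receptor of kidney and ileum that binds intrinsic factor with vitamin B12 and the vitamin D binding protein. It was −1.17, −1.20, −1.49 and −1.30 in C57 and −3.11, −2.95 and −2.77 in Il10-/- mice at 7 weeks, a difference of −1.66 ± 0.30 (3.15-fold lower, adjusted p = 0.00236, limma). Its level at 12 weeks was −2.53, −1.81, −2.11 and −0.60 in C57 and −2.82, −2.86, −2.59 and −2.84 in Il10-/- mice. Mouse 66, the highest of the C57 mice, also had the highest mean of the small intestinal list, −0.91. The same mouse had the highest mean of the kidney (−1.92), gut epithelial (0.99) and surface colonocyte (0.67) lists as well. The part of tissue makeup in its *Cubn* value was not tested.

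The 12-week *Cubn* difference, −1.01 ± 0.27 (adjusted p = 0.0274, limma), depended on the mice. It was −0.62 without mouse 66 (adjusted p = 0.011, limma), and the call was lost without C57 mouse 64 or Il10-/- mouse 92, 94 or 96 (adjusted p = 0.0562 to 0.0684, limma) and when only the 12-week groups were fitted (adjusted p = 0.115, limma). The vitamin D receptor *Vdr* was 0.83 ± 0.20 (SD) in C57 and 0.49 ± 0.22 in Il10-/- mice at 7 weeks, and 0.77 ± 0.13 and 0.33 ± 0.37 at 12 weeks. Its differences of −0.34 ± 0.17 and −0.44 ± 0.15 did not pass the test (adjusted p = 0.257 and 0.0927, limma). Without Il10-/- mouse 95 the latter was −0.59 and called (adjusted p = 0.0106, limma). *Cyp24a1*, which breaks down vitamin D and is its classic target, differed by 0.04 ± 0.11 and −0.19 ± 0.10 (adjusted p = 0.893 and 0.285, limma).

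Among 12 partners and regulators of the channels, 1 gene was called at 7 weeks and 0 at 12 weeks (limma), beside 2.42% and 2.52% of all genes. At each age 7 of the 12 had an unadjusted p under 0.05 (limma), beside 21.2% and 22.9% of all genes. *Klk1*, tissue kallikrein, known from the kidney to stimulate TRPV5, was lower in Il10-/- mice at 7 weeks by −0.97 ± 0.22 (adjusted p = 0.0106, limma). Its 2 features may also read closely related kallikrein genes, and the call was lost without Il10-/- mouse 78 (−0.86, adjusted p = 0.0709, limma). *Slc9a3r1*, the apical scaffold NHERF1, differed by 0.49 ± 0.14 at 7 weeks and by −0.36 ± 0.13 at 12 weeks. Neither genotype difference was called, and the genotypes overlapped at 12 weeks. The difference between ages, −0.84 ± 0.19, was called (adjusted p = 0.0337, limma). That call was lost without any 1 of C57 mice 44, 45, 46 and 65 or Il10-/- mice 78, 94 and 96 (adjusted p = 0.0506 to 0.102, limma). *S100a10* and *Anxa2*, whose proteins bring TRPV5 and TRPV6 to the membrane, differed by 0.16 ± 0.09 and 0.41 ± 0.13 at 7 weeks and by −0.22 ± 0.09 and 0.27 ± 0.12 at 12 weeks, with adjusted p of 0.0714 to 0.346 (limma).

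In the other 6 lists, with 47 genes, 0 were called in any comparison (limma). For genotype 9 had an unadjusted p under 0.05 at 7 weeks and 8 at 12 weeks (limma), beside 21.2% and 22.9% of all genes. Of the 6 other calcium buffers, *Calb1*, the larger calbindin of the kidney and brain, lay at −2.90 to −2.19 in all 15 mice and differed by −0.09 ± 0.13 and 0.04 ± 0.12. The 95% intervals, −0.37 to 0.20 and −0.23 to 0.30, leave out a 1.5-fold fall of the ratio. A feature close to background would not show a fall, and without spot intensities this could not be checked. Of the 6 claudins of the route between cells, the pore-forming *Cldn2* differed by −0.31 ± 0.14 and 0.34 ± 0.13 (adjusted p = 0.228 and 0.141, limma), and *Cldn15* by −0.05 ± 0.08 and 0.03 ± 0.07. The 10 other extrusion genes, the 10 other entry channels, the 5 store pumps and the 10 calcium hormones and receptors had median differences of −0.08 to 0.04 at 7 weeks and −0.03 to 0.06 at 12 weeks.

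Several of the 69 genes passed the test below the fold, and those named here were picked out after their values were seen. Without a fold threshold 8 of the 69 passed at 7 weeks and 7 at 12 weeks, the called genes included. The genes named here are a part of these and all were lower. The direction of the rest and the share of all genes that passed in this way are not given. *Trpm6*, a magnesium channel of the colon, was reduced at both ages (−0.44 ± 0.12 and −0.52 ± 0.11, adjusted p = 0.0275 and 0.00484, limma). At 12 weeks the calmodulin gene *Calm2* (−0.39 ± 0.06), the exchanger gene *Slc24a3* (−0.57 ± 0.14) and the kinase gene *Sgk1* (−0.55 ± 0.16) were lower, with adjusted p of 0.00072, 0.0165 and 0.0374 (limma). At 7 weeks the kinase gene *Wnk4* was lower (−0.34 ± 0.06, adjusted p = 0.00325, limma).

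**Figure D5:**
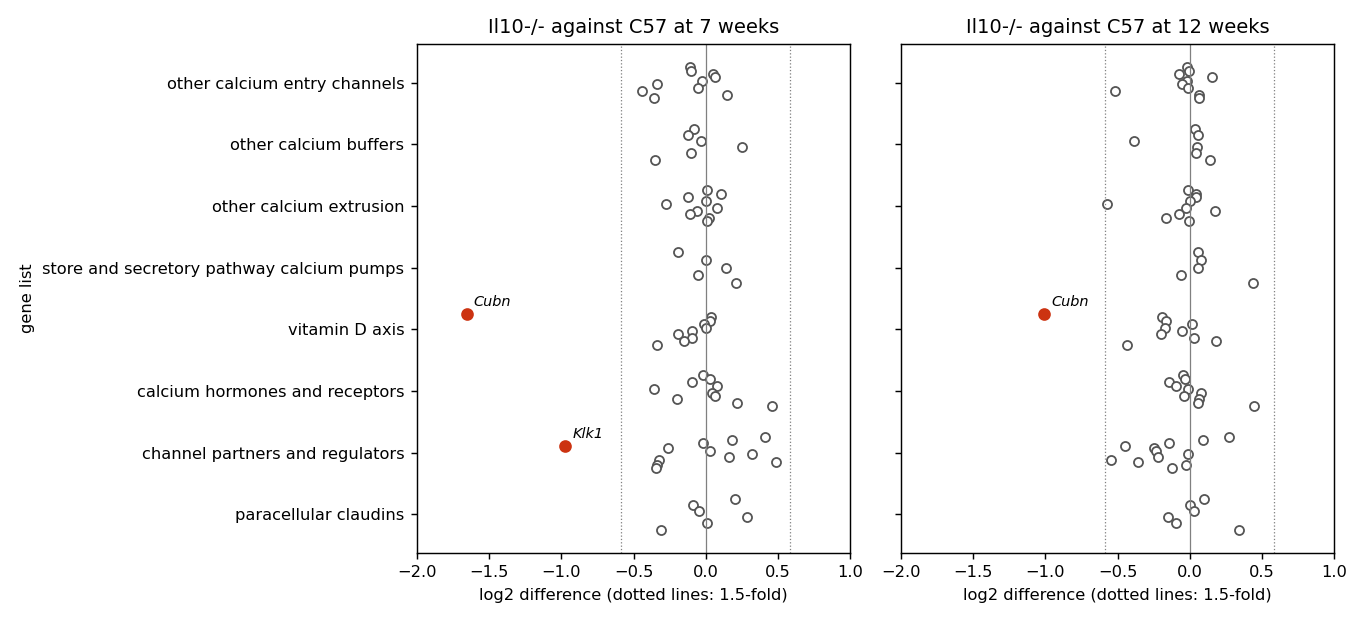
Log2 difference between Il10-/- and C57 mice (horizontal axis) for 69 other calcium handling genes in 8 lists (vertical axis), 1 point per gene, at 7 weeks (left) and 12 weeks (right); red points were called and dotted lines mark 1.5-fold. *Cubn* (−1.66 and −1.01) and, at 7 weeks, *Klk1* (−0.97) lie beyond the line on the lower side, and no gene lies beyond it on the higher side.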

How the data were processed

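Colon RNA was labelled with Cy3 and the reference pool with Cy5 on two-colour Agilent arrays. The authors applied loess to each array by itself in limma (version not given in the sources used here), left the background in, and deposited log2 ratios of colon over reference, which were used as deposited. Groups came from the sample titles, since the characteristics differ from them: they list Il10-/- as the strain of all arrays, C57 included, and a single age that no title gives. The group sizes by title are those of the study's methods. A feature was kept if each group had 2 or more arrays with a value for it (42128), and genes took the mean of the features annotated to that gene alone. Of 44290 features 32042 list 1 gene, 47 list several and 12201 have no annotation here; 31906 matched the reference table by gene ID. The array number and not a read depth limits the precision.

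Genes were fitted with limma 3.58.1 (R 4.3.3, statmod 1.5.0; lmFit and eBayes) on 4 group means with 11 residual degrees of freedom, and p values were adjusted by Benjamini-Hochberg over all 19076 genes. The fit was tested on simulated data. Nothing states whether the mice of a group shared a litter or cage. Likeness, marker lists and promoters were computed with pandas 2.3.3, numpy 2.4.6 and matplotlib 3.10.9 (Python 3.11.15). Members and lists were chosen with earlier results of these data known. Named are the 6 genes, list genes called in any comparison or best known for calcium absorption, and the genes most and least like *S100g* and *Trpv6*; others are said to be picked later. Alternatives were other normalizations, filters, feature rules, variance models and folds, and leaving out each mouse. Some listed genes were not analysed here.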

Additional observations from a re-analysis of the deposited data

Results flagged for a closer look

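In 5 of 114 groups of 4 mice tested over the 6 genes and the other named genes, 1 mouse stood far from the other 3 by Dixon's test, which chance alone gives in about 1 of 20 groups. *Trpv6* was −0.24 in C57 mouse 44 at 7 weeks against −0.02 to 0.02 in the other 3. *Cubn* was −2.59 in Il10-/- mouse 95 at 12 weeks (others −2.86 to −2.82), and *Wnk4* was −0.23 in the same mouse (others −0.12 to −0.10). *Cldn2* was 0.36 in C57 mouse 63 at 12 weeks (others −0.12 to −0.05). *Calm2* was 0.49 in C57 mouse 46 at 7 weeks (others 0.23 to 0.25). The genotype difference of *Slc9a3r1* changed between ages by −0.84 ± 0.19 (adjusted p = 0.0337, limma).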

How the results depend on the processing

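Over the alternatives and the fits without 1 mouse, 714 of 720 values of the 6 genes, 1259 of 1260 of their features and 1890 of 1920 of the named pathway genes counted as the same. This means an unchanged call, and an unchanged direction where either fit called the difference. A change of sign in a difference called in neither fit was not counted. For *S100g*, which was not tested, it means an unchanged direction and a move of less than its residual SD of 0.36. The exceptions for the 6 genes were *Atp2b1* at 7 weeks without C57 mouse 46 and the *S100g* difference between Il10-/- mice of 12 and 7 weeks (0.04), which was −0.22 after quantile normalization, −0.047 with array weights and −0.13 to 0.24 without 1 mouse. Taking the most variable feature of each gene moved *Atp2b1* to −1.14 in the younger and −1.48 in the older mice. Of the 5 genes other than *S100g*, 1 was called at 7 weeks, 2 without a fold threshold, 0 at a fold of 2 and 0 to 1 without 1 mouse; at 12 weeks 1 was called, and 0 at a fold of 2. Of the 69 pathway genes, 2 were called at 7 weeks, 4 by the most variable feature, 8 without a fold threshold, 1 at a fold of 2 and 1 to 2 without 1 mouse. At 12 weeks 1 was called, 2 after quantile normalization, 2 with array weights, 2 by the most variable feature, 0 with only the groups compared, 7 without a fold threshold and 0 to 5 without 1 mouse (5 without C57 mouse 63 or Il10-/- mouse 95). For the difference between ages 1 was called, 2 by the most variable feature, 0 at a fold of 2 and 0 to 2 without 1 mouse. For age in C57 mice 0 were called, and 0 to 1 without 1 mouse (*Cubn*, −0.86, without mouse 66). The causes were not tested. No paired analysis was possible because the groups share no mouse numbers. Spot intensities were not used here, so a limit of detection cannot be given for *Trpv5*, *Trpv6* and *Casr*. The same holds for *S100g* in Il10-/- mice and for *Calb1*.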
